A study of Mus musculus with 4 samples.

Results

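The nuclear genes of oxidative phosphorylation were followed in single cells of tibial and femoral epiphyses from Sox9 mutant and wild-type mice. Members were taken by gene symbol, as every feature whose symbol starts with Nduf, Sdha, Sdhb, Sdhc, Sdhd, Uqcr, Cox4i, Cox5, Cox6, Cox7, Cox8 or Atp5. That gave 97 of 31053 features, or 96 symbols, since Atp5o is listed with 2 identifiers and the second held 0 UMIs. By role the members comprise 38 named for complex I subunits, 8 assembly factors of complex I, 8 genes of complex II with its assembly factors, 8 of complex III, 18 of complex IV and 17 of ATP synthase. The rule reads symbols and no measured value, although it was proposed with earlier results of these data known.

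Oxidative phosphorylation passes electrons from NADH and succinate through complexes I to IV of the inner mitochondrial membrane to oxygen, and ATP synthase uses the proton gradient so built to make ATP. Most subunits are encoded in the nucleus, and 13 proteins of complexes I, III, IV and V are encoded by the mitochondrial genome. Several complex IV subunits exist as isoforms that differ between tissues or with oxygen, and cartilage, which has no blood vessels, is known for its low oxygen and its reliance on glycolysis.

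The mutant mice are labelled Sox9fl:fl AcanCreERT2/+, that is, with floxed Sox9 and a tamoxifen-dependent Cre made where Acan, a proteoglycan gene of cartilage, is expressed, so that deletion is directed at cartilage cells and not at marrow or vessels. The other mice are labelled wild type, and no Cre-bearing control without the floxed allele was part of the 4 libraries. The design text of the series names another age and mutant genotype than the sample labels, and the sample labels were followed. By these, each genotype was sampled at postnatal days 13 and 19 with 1 library each. The labels give neither the tamoxifen schedule, the floxed exons, the strain nor the number of animals pooled in a library. The p-values below therefore rest on 2 libraries of a genotype that differ in age, and do not measure the spread between mice.

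The libraries held 70507107 to 76080803 UMIs in 8053 to 12714 barcodes, and 6236 to 9685 cells per library were kept, with median depths of 8944 and 5342 UMIs in mutant cells and 9665 and 5432 UMIs in wild-type cells at days 13 and 19. Library pairs shared 19 to 44 barcodes. Clusters left unnamed held 19.9% and 21.8% of mutant cells and 8.15% and 26.01% of wild-type cells. Of 24 chondrocyte markers 23 were detected in the chondrocyte-like cells of every library. There, Sox9 stood at 197 and 174 CPM (a gene's UMIs scaled to a common total per sample) in mutant cells at days 13 and 19, against 359 and 458 CPM in wild-type cells; whether the counted 3' ends lie within the deleted part is not given. Col2a1, the collagen of cartilage, stood at 25103 and 30164 CPM in mutant cells, against 64830 and 59715 CPM in wild-type cells.

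The cells called chondrocyte-like differed in make-up between the genotypes, which touches every genotype comparison of the class. Clusters 1 (led by Epha5 and Col14a1) and 5 (led by Cryba2 and Mmp13) held 68.3% and 59.8% of the class in mutant libraries at days 13 and 19, against 1.12% and 2.29% in wild-type libraries. Clusters 6 (Pcp4), 7 (Frzb and Matn1) and 20 (Il17b and Ppa1) held 12.5% and 16.4% in mutant libraries, against 83.6% and 64.2% in wild-type libraries. Clusters 3 (led by Prg4, lubricin of the joint surface), 6, 7 and 13 (dividing cells) each had at least 50 cells in every library and were also compared one by one.

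Summed over all members, oxidative phosphorylation took close to 2% of the RNA in most cell classes, more in macrophage-like cells and less in neutrophil-like and erythroid-like cells. In chondrocyte-like cells the share was 2.03% and 1.96% of UMIs in mutant libraries at days 13 and 19, against 1.93% and 2.09% in wild-type libraries. Macrophage-like cells were above this, with 2.89% and 3.02% in mutant libraries and 3.27% and 3.00% in wild-type libraries. Neutrophil-like cells were lowest, with 0.75% and 0.81% in mutant libraries and 0.83% in both wild-type libraries. Erythroid-like cells had 1.07% and 1.05% in mutant libraries and 1.37% and 0.88% in wild-type libraries, while haemoglobin took 45.3% to 61.9% of their UMIs. These 3 classes lay farthest from the chondrocyte-like range of the classes described, and monocyte-like and B lineage-like cells, each summed as a class, also lay wholly above it. The B lineage-like class was not uniform. Its cluster 15, with 3077 of the 4057 cells, held 1.37% to 1.52%, below that range, and its cluster 11 held 2.58% to 2.84%.

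Among the other classes, monocyte-like cells held 2.30% to 2.42%, B lineage-like cells 2.11% to 2.47%, fibroblast and tendon-like cells 1.997% to 2.18% and endothelial-like cells 1.83% to 2.13%, ranges that overlap or adjoin each other. Osteoblast-like cells had 2.31% and 2.18% in mutant libraries, while their wild-type values of 2.75% and 1.98% rest on 22 and 10 cells. Among the chondrocyte-like clusters 3, 6, 7 and 13, cluster 6 was lowest at 1.48% to 1.63% and the dividing cluster 13 held 2.06% to 2.26%. In chondrocyte-like cells the members named for complex I subunits made up 0.65% to 0.74% of UMIs and ATP synthase 0.53% to 0.60%. Complex IV made up 0.47% to 0.52%, complex III 0.20% to 0.21% and complex II with its assembly factors 0.03% to 0.04%. The members named for complex I include Ndufa4, now known as a subunit of complex IV, and its paralogue Ndufa4l2, at 834 to 1450 CPM. The lead of this group over ATP synthase is thus no measure of complex I itself.

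**Figure D1:**
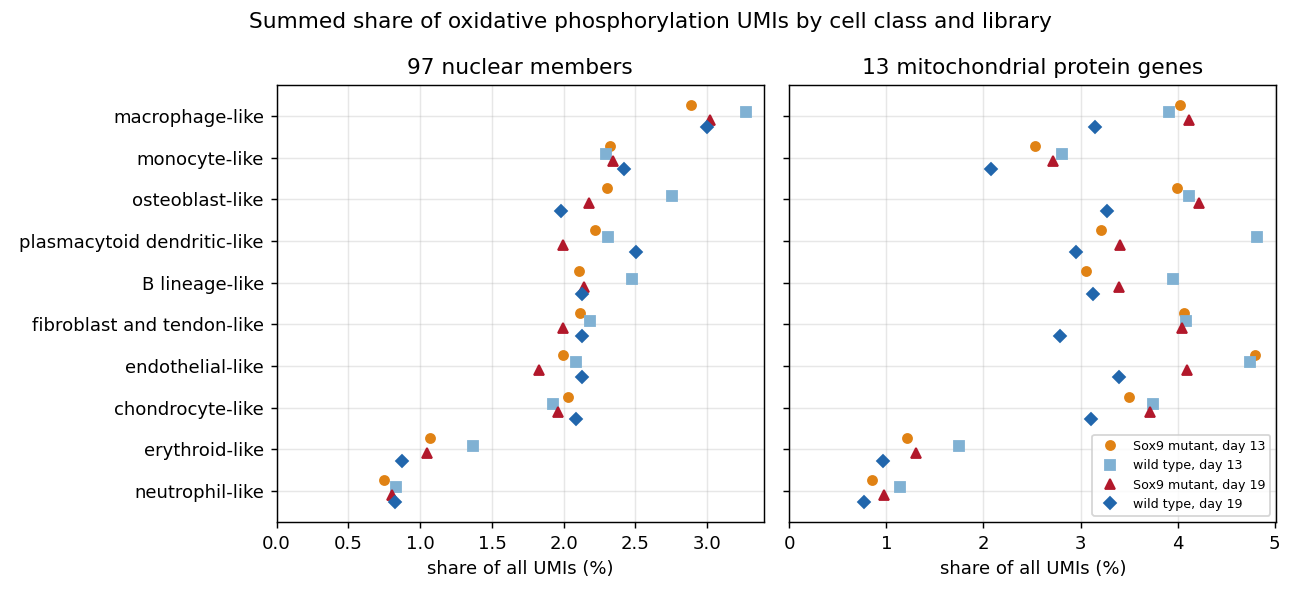
Share of all UMIs (%, x axis) held by the 97 nuclear members (left) and by the 13 mitochondrially encoded proteins (right), by cell class (y axis), with 1 point for each library and no error bars, since there is 1 library per genotype and age. Neutrophil-like cells sit between 0.75% and 0.83% of nuclear members and macrophage-like cells between 2.89% and 3.27%, while most other classes lie near 2%.

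The 13 mitochondrially encoded proteins had their lowest share in the wild-type library at day 19 in 9 of 10 classes, the exception being B lineage-like cells. In chondrocyte-like cells they held 3.50% and 3.72% of UMIs in mutant libraries at days 13 and 19, against 3.75% and 3.11% in wild-type libraries. That library stood apart in nearly every class, blood included, and its part in the results below was not tested.

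In chondrocyte-like cells the summed share of the nuclear members differed little by genotype and in opposite directions at the 2 ages. The log2 ratio of mutant over wild type was 0.076 at day 13 (95% interval 0.072 to 0.080) and -0.091 at day 19 (-0.096 to -0.085). Over age, the log2 ratio of day 19 over day 13 was -0.053 in mutant cells and 0.11 in wild-type cells. The mitochondrially encoded proteins went the other way, with log2 ratios of mutant over wild type of -0.10 at day 13 and 0.26 at day 19. These intervals cover counting error alone, and without replicates at 1 age no test was possible. Within single clusters the log2 ratio of the nuclear share at days 13 and 19 was 0.29 and 0.068 in cluster 3 and 0.13 and 0.14 in cluster 6, above 0 at both ages. It was 0.086 and -0.11 in cluster 7 and 0.13 and -0.079 in cluster 13, which changed sides as the whole class did.

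Single members varied more than their sum. A 3' UMI counts a molecule once whatever its length, so levels are given as CPM. Of the 97 members, 9 averaged 500 CPM or more over the 4 chondrocyte-like samples, 73 averaged 50 CPM or more and 9 averaged under 5 CPM. The 10 most abundant members held 32.5% of all member UMIs. Ndufa4l2 led at 1125 ± 303 CPM (SD over 4 libraries of different genotype and age), followed by Cox4i1, the general isoform of complex IV subunit 4, at 699 ± 45.8 CPM and Atp5e, the epsilon subunit of ATP synthase, at 678 ± 60.7 CPM.

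Over the 10 named classes, the members at 50 CPM or more in at least 1 class differed in how much they varied. The SD of the log2 level over classes was 2.88 for Cox6a2, 2.35 for Ndufa4l2, 1.90 for Cox4i2, 1.34 for Atp5g2 and 1.19 for Ndufb5. Since classes are made from the same cells, these levels are a description and carry no test.

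Ndufa4l2 (chr10:127514967-127517154, plus strand, GRCm38) encodes a paralogue of Ndufa4 known as a target of hypoxia-inducible factor; Ndufa4 itself was named for complex I and is now known as a subunit of complex IV. In the chondrocyte-like clusters 3, 6, 7 and 13 its 16 values ranged over 178 to 2211 CPM with a median of 844 CPM. The 24 values of the 6 blood-like classes ranged over 0 to 90.8 CPM with a median of 30.3 CPM, so that the ranges did not overlap. Fibroblast and tendon-like cells had 770 and 664 CPM in mutant libraries at days 13 and 19, against 1431 and 559 CPM in wild-type libraries.

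Cells around vessels differed from the cells that line them. A sub-cluster of 66 cells within the endothelial-like class expressed Rgs5, a pericyte marker, at 5351 to 7747 CPM. There Ndufa4l2 stood at 1168 and 1262 CPM in mutant libraries at days 13 and 19 and 844 and 754 CPM in wild-type libraries. These values rest on 22 and 13 cells in mutant libraries and 23 and 8 cells in wild-type libraries. The remaining endothelial-like sub-clusters had 72.8 and 56.6 CPM in mutant libraries and 109 and 24.2 CPM in wild-type libraries. RNA of cartilage was present in both, with Col2a1 at 2001 and 861 CPM in mutant and 8027 and 10638 CPM in wild-type pericyte-like cells, and at 1343 and 1083 CPM in mutant and 6457 and 905 CPM in wild-type cells of the others. Col2a1 was thus within 2-fold of the others in 3 libraries and far higher in wild-type pericyte-like cells at day 19, and its part in the Ndufa4l2 values was not tested.

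Cox4i2 (chr2:152754173-152765037, plus strand) encodes the oxygen-responsive isoform of complex IV subunit 4, known from lung and from oxygen-sensing cells. Its 16 values in the 4 chondrocyte-like clusters ranged over 75.9 to 827 CPM, and the 24 values of blood-like classes over 1.70 to 44.4 CPM. Pericyte-like cells had 275 and 459 CPM in mutant libraries and 231 and 486 CPM in wild-type libraries, while the remaining endothelial-like cells had 12.5 and 7.72 CPM in mutant libraries and 29.3 and 0 CPM in wild-type libraries. Osteoblast-like cells of mutant libraries had Ndufa4l2 at 1583 and 1041 CPM and Cox4i2 at 279.5 and 227 CPM, against 52.1 and 482 CPM and 29.8 and 115 CPM in the few wild-type cells. Both isoform genes were thus high in several skeletal and vessel-wall groups and low in blood-like classes, whereas their partners Ndufa4 and Cox4i1 were detected at 55.3 CPM or more in every named class and library.

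**Figure D2:**
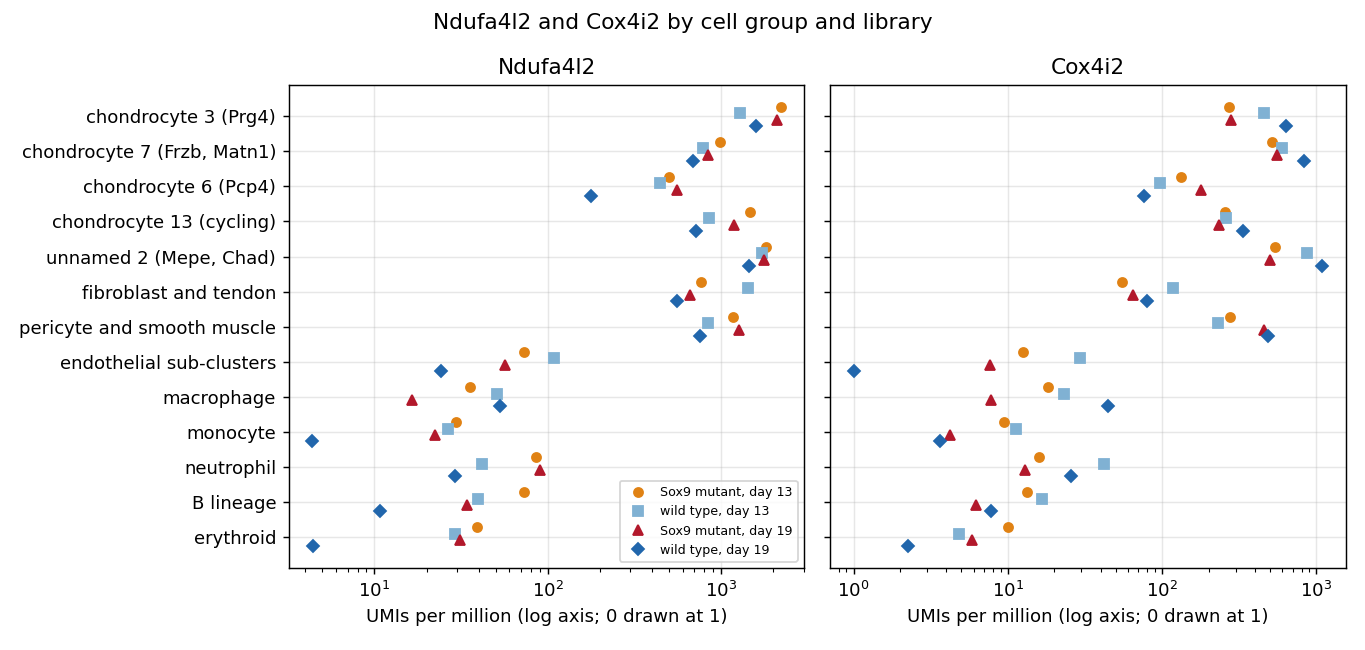
CPM of Ndufa4l2 (left) and Cox4i2 (right) on a log axis by cell group (y axis), with 1 point per library; values of 0 are drawn at 1 CPM. The chondrocyte-like and pericyte-like groups lie above the endothelial sub-clusters and the blood-like classes, with Ndufa4l2 at 178 CPM or more in every chondrocyte-like cluster and at 90.8 CPM or less in blood-like classes.

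After each cell was thinned to 2000 UMIs, 71.3% and 68.5% of mutant chondrocyte-like cells had a Ndufa4l2 UMI at days 13 and 19, against 56.2% and 48.1% of wild-type cells (unthinned 85.9% and 84.1%, against 77.4% and 73.1%). In neutrophil-like cells, which serve as a background, the thinned shares were 13.0% and 5.73% in mutant libraries, against 4.42% and 0.90% in wild-type libraries. Their median depths were 2073 and 2316 UMIs in mutant libraries and 1760 and 3247 UMIs in wild-type libraries, against 10639 and 9478 UMIs in mutant and 11830 and 16711 UMIs in wild-type chondrocyte-like cells. For Cox4i2 the thinned shares were 25.6% and 26.1% of mutant chondrocyte-like cells, against 39.9% and 39.6% of wild-type cells. Unthinned, they were 57.6% and 56.4% of mutant cells, against 72.3% and 73.5% of wild-type cells, and the thinned shares in neutrophil-like cells were 3.24% and 1.65% in mutant libraries, against 4.42% and 1.51% in wild-type libraries. Cells under this depth were left out, 75 and 93 mutant and 84 and 11 wild-type chondrocyte-like cells, and 222 and 539 mutant and 154 and 88 wild-type neutrophil-like cells. Both genes were thus far above background in cartilage, with Ndufa4l2 in more mutant cells and Cox4i2 in fewer.

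Cox6a2 (chr7:128205435-128206387, minus strand), the heart and muscle isoform of subunit 6a, was high in a single class. Plasmacytoid dendritic-like cells had 691 and 705 CPM in mutant libraries at days 13 and 19, against 1157 and 914 CPM in wild-type libraries, from 17 to 108 cells per library. It made up 72.9% and 72.4% of Cox6a1 and Cox6a2 UMIs there in mutant libraries, against 81.1% and 73.6% in wild-type libraries, with exact 95% intervals that overlap. B lineage-like cells had 4.41 and 7.30 CPM in mutant libraries and 8.95 and 20.1 CPM in wild-type libraries, and chondrocyte-like cells had 0.68 to 1.502 CPM.

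Atp5g2, a gene for the rotating c-ring of ATP synthase, was low in erythroid-like cells, with 50.01 and 42.3 CPM in mutant libraries and 54.4 and 28.1 CPM in wild-type libraries. Neutrophil-like cells had 87.2 and 89.6 CPM in mutant libraries and 66.3 and 109.7 CPM in wild-type libraries, and every other class had 334 CPM or more. Cox6b2 (chr7:4751792-4753094, minus strand), known as the testis isoform of subunit 6b, was highest in erythroid-like cells among named classes, at 99.0 and 119 CPM in mutant libraries and 88.4 and 42.6 CPM in wild-type libraries. Cox7a1, the heart and muscle isoform of subunit 7a, reached 15.4 to 20.5 CPM in macrophage-like cells and stayed at 6.39 CPM or less in the other named classes.

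Between genotypes, in chondrocyte-like cells, members were called more often lower than higher. Of 94 members tested by edgeR's quasi-likelihood test with Benjamini-Hochberg adjustment over all genes, 3 were higher in mutant cells, or 3.19%, where 14.5% of all 14949 genes were; 16 were lower, or 17.0%, where 12.5% of all genes were; and 75 did not pass. The median log2 change of the members was -0.22, beside 0.01 over all genes tested. The share called lower is near the background and reads as no result about the members as a set, whereas fewer were called higher than among all genes, a difference that was not tested. The count depended on the fit. With DESeq2, 3 members were higher and 7 lower (3.19% and 7.45%, beside 7.83% and 7.30% of all genes); with genotype as the only term, 1 was higher and 6 lower (1.06% and 6.38%, beside 8.27% and 7.26%); and over all skeletal-lineage clusters, 1 was higher and 4 lower (1.04% and 4.17%, beside 11.2% and 8.56%). By edgeR with genotype as the only term and 1 library left out, 0 were higher and 0 lower without the mutant library at day 13 (5 at an unadjusted p under 0.05), 0 and 1 without the mutant library at day 19, 1 and 8 without the wild-type library at day 19 and 3 and 14 without the wild-type library at day 13. In these fits the lone library of a genotype is assumed to vary like the pair of the other, and age is not balanced. Without the mutant library at day 13 every call of a member named below was lost, and without that at day 19 Cox4i2 alone of the members passed. Cox7b2, Cox8b and the second Atp5o were too low to be tested, with 48, 64 and 0 UMIs over all kept cells.

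TMM scaling moved these changes by -0.26 at day 13 and -0.14 at day 19 on the log2 scale relative to plain CPM, so directions were also read without it. On plain CPM 30 members were lower and 22 higher in mutant cells at both ages, and 42 changed sides, 38 of them higher at day 13 and lower at day 19. Mutant and wild-type values did not overlap for 28 members lower in mutant cells and 18 higher, beside 16.9% and 47% of all genes. Of the 16 members called lower, 15 were lower at both ages and did not overlap on plain CPM, the exception being Ndufab1, and all 3 called higher did not overlap either.

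**Figure D3:**
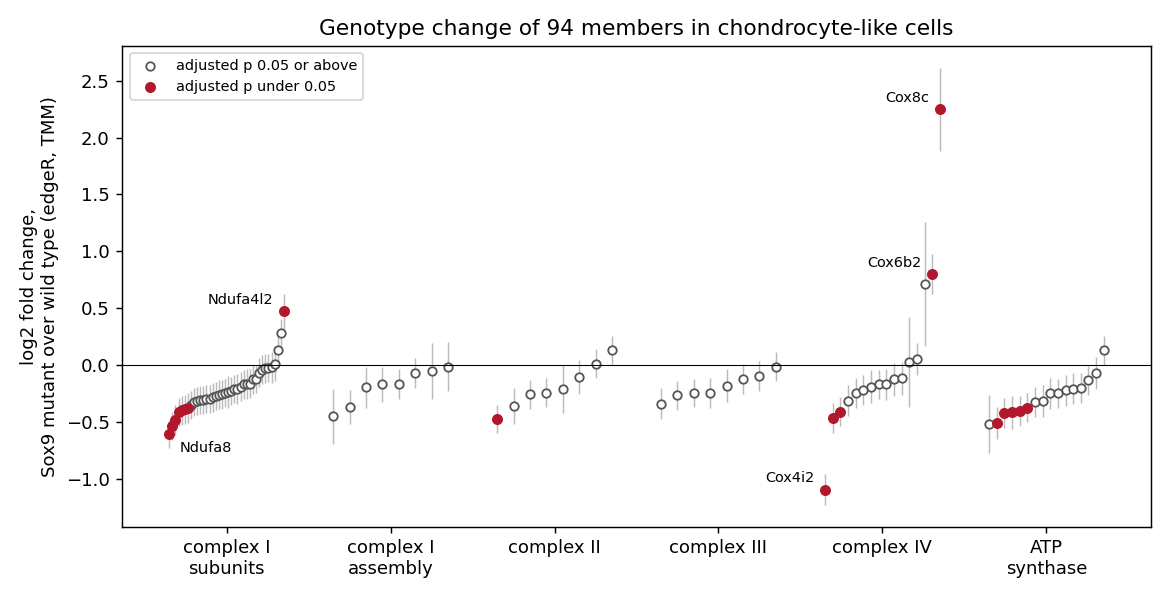
Log2 fold change of Sox9 mutant over wild type (edgeR with TMM scaling, y axis) for the 94 tested members in chondrocyte-like cells, grouped by role (x axis) and ordered by size; bars are 1 SE and filled points passed an adjusted p of 0.05. Points called lower lie among complexes I, II and IV and ATP synthase, 3 points lie above 0 and passed, and all 16 complex III and complex I assembly points failed; on plain CPM 42 members changed sides between the ages.

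Of the 38 members named for complex I subunits, 7 were lower and 1 was higher. Ndufa8 (chr2:36036326-36049406, minus strand), an accessory subunit, had 115 and 116 CPM in mutant cells at days 13 and 19, against 147 and 160 CPM in wild-type cells, and fell by 0.61 on the log2 scale (SE 0.12; adjusted p = 0.0018, edgeR). Ndufb8, another accessory subunit, had 129 and 124 CPM in mutant cells, against 158 and 162 CPM in wild-type cells, with a log2 change of -0.54. The further subunits called lower were Ndufs8 and Ndufs4, an iron-sulfur and an accessory subunit needed for assembly, Ndufs5, Ndufb7 and Ndufab1, the mitochondrial acyl carrier protein, with log2 changes of -0.49, -0.41, -0.40, -0.39 and -0.38.

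Ndufa4l2 was the complex I-named member that was higher. It had 1450.5 and 1313 CPM in mutant cells at days 13 and 19, against 903 and 834 CPM in wild-type cells, a log2 change of 0.47 (SE 0.15; adjusted p = 0.033, edgeR). Mutant and wild-type values did not overlap over the 2 ages. The call was lost with genotype as the only term (adjusted p = 0.087, edgeR) and over all skeletal-lineage clusters (adjusted p = 0.052, edgeR), and in that single-term fit also without the wild-type library at day 19 (adjusted p = 0.096, edgeR). Ndufa4 had 268 and 317 CPM in mutant cells, against 232 and 388 CPM in wild-type cells, and did not pass (log2 change -0.24; adjusted p = 0.24, edgeR). Ndufa4l2 made up 84.4% and 80.5% of the pair's UMIs in mutant cells, against 79.5% and 68.3% in wild-type cells.

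None of the 8 complex I assembly factors passed, with Ndufaf8 the most abundant at 50.8 and 50.2 CPM in mutant cells and 52.0 and 46.9 CPM in wild-type cells. In complex II, which links the citric acid cycle to the chain, Sdhd, a membrane anchor subunit, was the single member to pass, with 63.4 and 65.2 CPM in mutant cells, against 71.1 and 85.5 CPM in wild-type cells (log2 change -0.47). Sdhb, its iron-sulfur subunit, had 78.5 and 78.0 CPM in mutant cells, against 72.9 and 91.6 CPM in wild-type cells, and the genotypes overlapped. None of the 8 complex III genes passed. Uqcr11, a small subunit, had the lowest change there, with 314 and 319 CPM in mutant cells, against 338 and 361 CPM in wild-type cells, and Uqcrc1, a core subunit, had 58.5 and 62.5 CPM in mutant cells, against 52.0 and 54.8 CPM in wild-type cells.

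In complex IV, 3 members were lower and 2 higher of 16 tested. Cox4i2 had 224 and 217 CPM in mutant cells at days 13 and 19, against 391 and 431 CPM in wild-type cells, a log2 change of -1.10 (SE 0.13; adjusted p = 2.1e-05, edgeR), the largest fall among the members. Without the mutant library at day 13 and with genotype as the only term its log2 change was -1.12 (adjusted p = 0.055, edgeR). Cox6a1, the general isoform of subunit 6a, had 275 and 298 CPM in mutant cells, against 302 and 395 CPM in wild-type cells (log2 change -0.47), and Cox5a had 187 and 195 CPM in mutant cells, against 202 and 243 CPM in wild-type cells (-0.41). Cox4i1 was not called, with 755 and 683 CPM in mutant cells, against 712 and 647 CPM in wild-type cells.

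The 2 complex IV genes called higher were of low abundance. Cox6b2 had 19.9 and 16.8 CPM in mutant cells, against 11.5 and 7.08 CPM in wild-type cells, a log2 change of 0.80 (SE 0.18). Cox8c (chr12:102899316-102900526, plus strand), known as a testis isoform of subunit 8, had 105 and 128 UMIs in mutant cells, against 43 and 10 UMIs in wild-type cells, which is 3.01 and 4.58 CPM against 0.75 and 0.51 CPM (log2 change 2.25, SE 0.36). The genotypes did not overlap for either gene.

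In ATP synthase 5 members were lower of 16 tested. Atp5g1, a c-ring gene, had 447 and 461 CPM in mutant cells, against 546 and 581 CPM in wild-type cells (log2 change -0.51). The others were Atp5j, a peripheral stalk subunit known as coupling factor 6, Atp5e, Atp5c1, the gamma subunit of the central stalk, and Atp5f1, subunit b of the peripheral stalk, with log2 changes of -0.42, -0.42, -0.41 and -0.37. Atp5b, the catalytic beta subunit, had 400.1 and 415 CPM in mutant cells, against 387 and 446 CPM in wild-type cells, and did not pass.

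Promoter windows from RefSeq (GRCm38.p6, 250 bases before to 50 after each start) were found for 80 of the 96 symbols. They were searched on both strands for cores of factors known for genes of this pathway. Ndufa4l2, Cox4i2 and Cox6a2 were among the symbols without a window and were not searched. The NRF1 core, a palindrome whose letters are the capitals of the Cox6a1 window below, was in the windows of 7 of 80 members (8.75%) and of 1.07% of 27025 genes. The YY1 core AAGATGGCG was in 8 (10%) of members and 1.64% of all genes, and the ETS core CCGGAAGT, bound by GABP, in 5 (6.25%) of members and 4.31% of all genes. The hypoxia response cores ACGTG and GCGTG, which can overlap the others, were in 25% and 56.25% of members and 21.8% and 35.2% of all genes. Among members called lower, Cox6a1 held the NRF1 core and Ndufs4 the YY1 core. The others with a window, apart from Atp5j, held none of the NRF1, YY1 and ETS cores. Of the 2 windows that the table gives for Atp5j, 1 held the YY1 core and the other held none of these 3 cores; the window with the core is shown. These 3 windows are printed with Ndufa11, described below in the Prg4-led cluster, and Cox8a. On plain CPM, Cox8a moved in opposite directions at the 2 ages. Capitals mark every match to the NRF1, ETS or YY1 core. The windows lie at chr5:115348909-115349208 (minus strand), chr13:114388045-114388344 (minus), chr16:84834927-84835226 (minus), chr17:56717512-56717811 (plus) and chr19:7217567-7217866 (minus).
Cox6a1: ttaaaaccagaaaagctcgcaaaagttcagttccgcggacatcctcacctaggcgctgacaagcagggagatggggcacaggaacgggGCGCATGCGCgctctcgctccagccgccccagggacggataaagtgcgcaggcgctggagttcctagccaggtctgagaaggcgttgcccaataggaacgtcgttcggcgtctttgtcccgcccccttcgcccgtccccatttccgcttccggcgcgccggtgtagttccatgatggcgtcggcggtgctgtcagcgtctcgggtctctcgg
Ndufs4: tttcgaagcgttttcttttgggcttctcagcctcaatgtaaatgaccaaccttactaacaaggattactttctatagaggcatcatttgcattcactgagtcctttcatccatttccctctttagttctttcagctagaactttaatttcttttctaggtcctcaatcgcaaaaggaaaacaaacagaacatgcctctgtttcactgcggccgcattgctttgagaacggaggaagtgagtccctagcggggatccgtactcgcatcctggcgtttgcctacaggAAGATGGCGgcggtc
Atp5j: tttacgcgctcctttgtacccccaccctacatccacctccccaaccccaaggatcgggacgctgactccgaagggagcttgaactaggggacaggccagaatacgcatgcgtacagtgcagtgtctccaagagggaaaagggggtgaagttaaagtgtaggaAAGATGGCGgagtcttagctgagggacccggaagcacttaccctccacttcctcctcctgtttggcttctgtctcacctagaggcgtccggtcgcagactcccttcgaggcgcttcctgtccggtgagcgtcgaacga
Ndufa11: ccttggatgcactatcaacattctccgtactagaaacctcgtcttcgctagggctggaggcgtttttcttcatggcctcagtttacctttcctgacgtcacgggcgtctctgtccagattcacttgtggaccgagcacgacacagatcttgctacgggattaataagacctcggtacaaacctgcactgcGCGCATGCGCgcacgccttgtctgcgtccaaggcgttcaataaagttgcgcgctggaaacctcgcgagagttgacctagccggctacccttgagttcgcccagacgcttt
Cox8a: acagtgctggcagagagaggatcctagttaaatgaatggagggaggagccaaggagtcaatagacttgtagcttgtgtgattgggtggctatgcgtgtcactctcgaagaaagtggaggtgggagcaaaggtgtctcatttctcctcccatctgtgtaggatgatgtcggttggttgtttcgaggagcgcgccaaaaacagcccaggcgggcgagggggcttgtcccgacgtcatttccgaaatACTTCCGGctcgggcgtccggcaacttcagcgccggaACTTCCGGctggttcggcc
The YY1 core lies after the annotated start in the Ndufs4 window and before it in the Atp5j window, and the NRF1 cores of Cox6a1 and Ndufa11 lie before it. Cox8a held the ETS core at 2 places, both on the opposite strand. A match is a description of the letters and says nothing of binding, which was not measured.

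Within clusters 3, 6, 7 and 13 DESeq2 called at most 2 members each. By edgeR, cluster 3 had 2 members higher and 1 lower of 91 tested, where 3.12% and 2.34% of all genes were called, and DESeq2 called 1 and 1. Cluster 6 had none of 88 called (2.62% and 1.64% of all genes; 8 members at an unadjusted p under 0.05), and neither did cluster 7 among 92 (1.75% and 1.25%; 6 members); DESeq2 called none in either. Cluster 13 had 2 higher and 10 lower of 92, where 11.3% and 8.76% of all genes were called, and DESeq2 called 1 higher and 0 lower there (6 members at an unadjusted p under 0.05). The member medians were 0.11, 0.05, -0.05 and -0.17 on the log2 scale in clusters 3, 6, 7 and 13, beside -0.002, -0.004, 0.005 and 0.01 for all genes. Of the 16 members called lower in the whole class, Atp5c1, Sdhd and Atp5j had a log2 change below 0 in all 4 clusters and the other 13 did not. Among the 94 tested members 7 were below 0 in all 4 clusters and 8 were above 0, namely Sdhc, Ndufa1, Atp5k, Ndufa3, Cox6b2, Ndufa4l2, Ndufa13 and Cox6c.

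Cox4i2 fell in several of these clusters but not in all. In cluster 3 it had 270 and 279 CPM in mutant cells at days 13 and 19, against 459 and 634 CPM in wild-type cells (log2 change -1.01; adjusted p = 0.0060, edgeR). In cluster 13 it had 257 and 232 CPM in mutant cells, against 259 and 332 CPM in wild-type cells (-0.44; adjusted p = 0.048, edgeR, and 0.39 by DESeq2). In cluster 7 it had 518 and 554 CPM in mutant cells, against 600.4 and 827 CPM in wild-type cells (-0.42; adjusted p = 0.28, edgeR). Cluster 6 ran the other way without passing, with 133 and 179 CPM in mutant cells, against 97.5 and 75.9 CPM in wild-type cells (0.77; adjusted p = 0.11, edgeR).

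The unnamed cluster 2, which held Mepe and Chad among its leading genes, also had lower Cox4i2, with 543 and 503 CPM in mutant cells, against 871 and 1087 CPM in wild-type cells (log2 change -1.08; adjusted p = 0.00034, edgeR). It was the single member of 91 called there, where 6.01% of all genes were called higher and 5.52% lower. As a share of Cox4i1 and Cox4i2 UMIs, Cox4i2 took 22.8% and 24.1% in mutant chondrocyte-like cells, against 35.5% and 40.0% in wild-type cells. In cluster 3 the share was 26.7% and 30.3% in mutant cells, against 40.2% and 52.9% in wild-type cells, and in cluster 6 it was 16.2% and 23.6% in mutant cells, against 13.5% and 11.9% in wild-type cells.

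**Figure D4:**
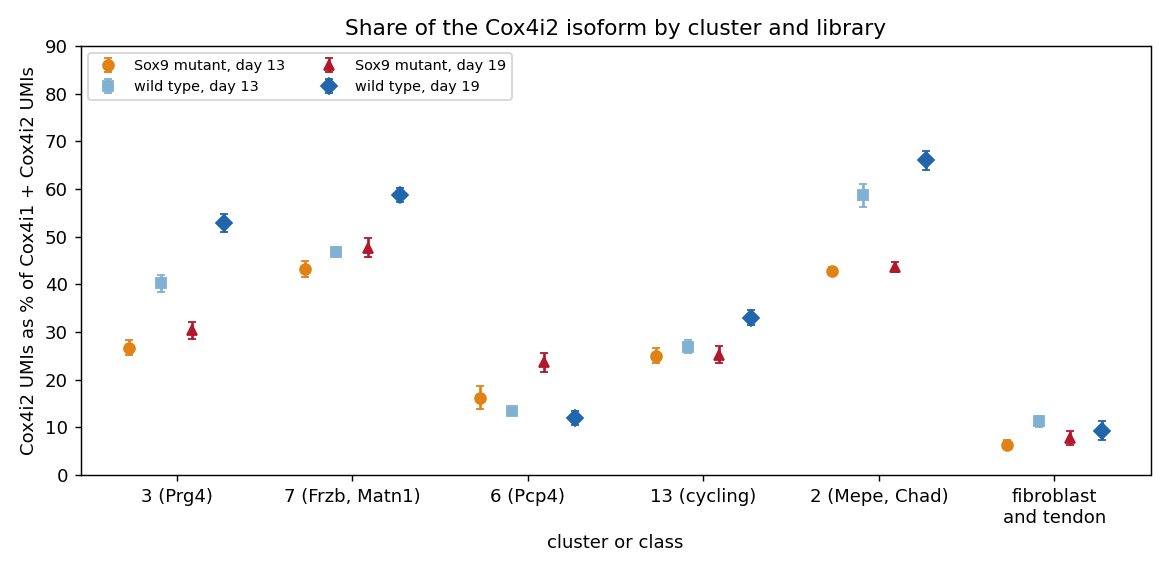
Cox4i2 UMIs as % of Cox4i1 and Cox4i2 UMIs (y axis) by cluster or class (x axis), with 1 point per library and exact 95% binomial intervals that cover counting error alone. Mutant points lie below wild-type points of the same age in clusters 3, 7, 13 and 2 and above them in cluster 6, where they reach 16.2% and 23.6% against 13.5% and 11.9%.

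Ndufa4l2 had higher values in mutant than in wild-type cells at both ages in clusters 3, 6, 7 and 13, and passed in cluster 13 alone among them. Cluster 13 had 1468 and 1193 CPM in mutant cells at days 13 and 19, against 849 and 717 CPM in wild-type cells (log2 change 0.59; adjusted p = 0.0092, edgeR, and 0.059 by DESeq2). Cluster 3 had 2211 and 2101 CPM in mutant cells, against 1281 and 1599 CPM in wild-type cells (0.56; adjusted p = 0.25, edgeR). In cluster 2 its log2 change was -0.00, with 1817 and 1762 CPM in mutant cells, against 1719 and 1443 CPM in wild-type cells.

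The members called higher in cluster 3 were Ndufa11 and Ndufa3, both accessory subunits of complex I. Ndufa11 (chr17:56717767-56722141, plus strand) had 419 and 502 CPM in mutant cells at days 13 and 19, against 180.2 and 278 CPM in wild-type cells (log2 change 1.001; adjusted p = 0.0049, edgeR). The genotypes did not overlap. Over the whole class it had 210.5 and 216 CPM in mutant cells, against 149 and 194 CPM in wild-type cells, and did not pass. Whether cluster 3 holds the same cell states in both genotypes was not tested.

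Over age in chondrocyte-like cells no member passed. Of the 94 tested, edgeR called none higher or lower at day 19 than at day 13, where 1.7% and 0.428% of all genes were called, and 4 members reached an unadjusted p under 0.05; DESeq2 also called none, with 1 at an unadjusted p under 0.05. Among members at 50 CPM or more, Ndufa4 had the largest estimate, a log2 change of 0.44 (adjusted p = 0.16, edgeR), with 317 CPM at day 19 and 268 CPM at day 13 in mutant cells, and 388 and 232 CPM in wild-type cells. Cox7a2l, a factor of respiratory supercomplexes, had the lowest of these, -0.27, with 245 CPM at day 19 and 265 CPM at day 13 in mutant cells, and 223 and 280.5 CPM in wild-type cells.

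**Figure D5:**
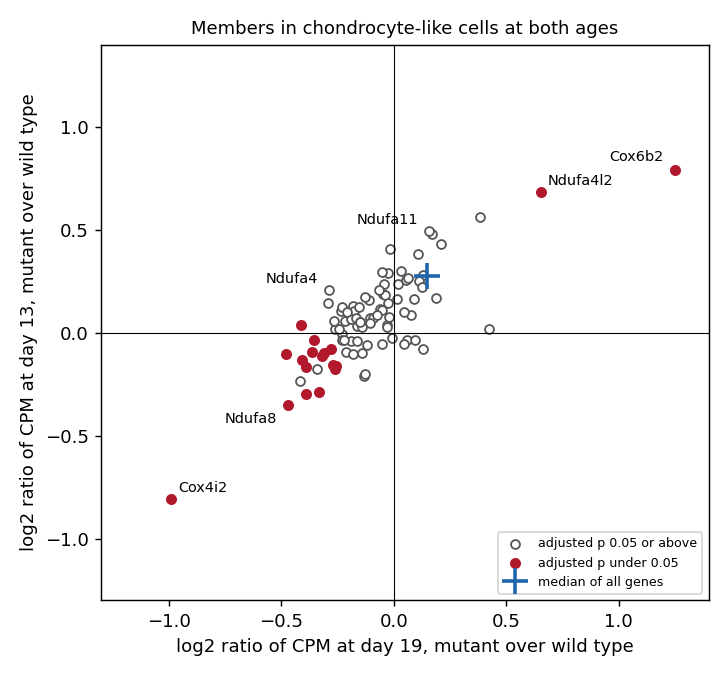
Log2 ratio of CPM, Sox9 mutant over wild type, at day 19 (x axis) and day 13 (y axis) for 92 of the 94 tested members in chondrocyte-like cells; Cox7a1 and Cox8c lie outside the axes. Filled points passed an adjusted p of 0.05 in edgeR, and the cross marks the median of all genes at 0.15 and 0.27; 38 members lie in the upper left, higher in mutant cells at day 13 and lower at day 19.

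In the 6 other named classes with at least 50 cells in each library edgeR called 4 genotype changes of members, and DESeq2 called none of them. Osteoblast-like, endothelial-like and plasmacytoid dendritic-like cells had fewer in some library and were not tested. In neutrophil-like cells Ndufa4l2 had 85.5 and 90.8 CPM in mutant libraries at days 13 and 19, against 42.0 and 29.1 CPM in wild-type libraries (log2 change 1.42; adjusted p = 0.00091, edgeR, and 0.17 by DESeq2), the single member of 82 called, where 2.03% and 1.34% of all genes were. In B lineage-like cells, 1 of 92 members was higher and 1 lower (2.07% and 1.34% of all genes), Ndufa4l2 with a log2 change of 1.28 and Cox6a2 with -1.41. In macrophage-like cells Cox4i2 was lower by edgeR (-1.37; 1 of 87 members, 1.53% and 1.63% of all genes). That call rests on 16 and 9 UMIs in mutant libraries at days 13 and 19, against 27 and 26 UMIs in wild-type libraries. No member was called in fibroblast and tendon-like cells (0.798% of all genes higher and 0.433% lower), monocyte-like cells (0.637% and 0.298%) or erythroid-like cells (1.54% and 0.496%), where 1, 3 and 7 members reached an unadjusted p under 0.05 by edgeR and 0, 0 and 2 by DESeq2.

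Ndufa4l2 was also called in groups of marrow cells that the classes do not show alone. In the unnamed cluster 0, Ndufa4l2 was higher and Sdhd lower in mutant cells (1.74 and -0.73 on the log2 scale, edgeR). That was 1 higher and 1 lower of 89 members, where 1.14% and 1.72% of all genes were called. In the erythroid-like cluster 18, Ndufa4l2 and Cox6b2 were higher (2.003 and 0.99), or 2.38% of 84 members, where 4.17% of all genes were. Ndufa4, Atp5j and the ATP synthase coupling gene Atp5s were lower there (-0.62, -0.57 and -2.30), or 3.57% of members, where 2.83% of all genes were. Atp5s held only 903 UMIs over all kept cells of the series. DESeq2 called no member by genotype in either cluster. Over age, Ndufa4l2 was lower at day 19 in B lineage-like cells (-1.31; 0.547% of all genes higher and 0.646% lower). Summed over all these classes and single clusters, which overlap, edgeR called 31 genotype changes of members, where 2.66% of gene tests were higher and 1.99% lower, and 5 age changes, where 0.569% were higher and 0.423% lower. DESeq2 called 4 and 0 of these. The 31 changes mix both directions and are given without the number of member tests. They read as no result about the members as a set.

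RNA of cartilage was present in these blood-like cells and moved with genotype too. The summed cartilage list stood at 4265 and 4401 CPM in mutant neutrophil-like cells, against 14373 and 7919 CPM in wild-type cells. Per 100 UMIs of that list, Ndufa4l2 had 2.01 and 2.06 UMIs in mutant neutrophil-like cells and 0.29 and 0.37 UMIs in wild-type cells, and 3.72 and 2.80 UMIs in mutant chondrocyte-like cells and 0.88 and 0.87 UMIs in wild-type cells. The list itself was lower in mutant cells of both classes. Chondrocyte-like cells had it at 39032 and 46870 CPM in mutant libraries, against 102440 and 95664 CPM in wild-type libraries. The ratio is therefore higher in mutant cells even where Ndufa4l2 is unchanged, and no conclusion is drawn from its shared direction. In macrophage-like cells the list stood at 1886 and 1525 CPM in mutant libraries, against 12275 and 8647 CPM in wild-type libraries. Per 100 UMIs of the list, Cox4i2 had 0.97 and 0.51 UMIs there in mutant libraries, against 0.19 and 0.51 UMIs in wild-type libraries. The part of free RNA in the blood calls was not tested.

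Genes that work beside the members were counted from lists, in chondrocyte-like cells with the same fit, in which 14.5% of all genes were higher and 12.5% lower. None of the 13 mitochondrially encoded proteins passed by genotype (median -0.14; 1 at an unadjusted p under 0.05). Of the 2 genes around cytochrome c, Cycs, cytochrome c itself, was lower, with 112 and 120.01 CPM in mutant cells, against 114 and 168 CPM in wild-type cells (log2 change -0.45), and Cyc1, the cytochrome of complex III, did not pass. Of 13 citric acid cycle genes 1 was lower, Idh3a, with 24.8 and 26.1 CPM in mutant cells, against 29.1 and 41.3 CPM in wild-type cells. Of 36 other assembly factors tested 1 was higher, Timmdc1, and 3 lower, Foxred1, Uqcc2 and Cox17, with log2 changes of 0.85, -0.95, -0.69 and -0.46, and of 8 carriers and porins the porins Vdac2 and Vdac3 were lower.

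Fuel entry and glycolysis held single genes that passed. Of 11 genes of pyruvate entry, Pdk4, a kinase that turns pyruvate dehydrogenase off, was higher, with 7.32 and 8.33 CPM in mutant cells, against 1.55 and 3.47 CPM in wild-type cells, and Mpc1, of the mitochondrial pyruvate carrier, was lower (-0.49). Of 15 glycolysis genes tested, Hk2, a hexokinase, was higher, with 153 and 211 CPM in mutant cells, against 61.9 and 105 CPM in wild-type cells (log2 change 0.96), Pfkl, a phosphofructokinase, was lower (-0.50) and 13 did not pass. The 15 glycolysis genes had a median log2 change of -0.22, with 12 below 0. Of 14 regulators of mitochondrial biogenesis Esrra, a nuclear receptor, was higher (0.84).

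Genes known to be induced in hypoxia, beside which Ndufa4l2 is usually listed, had 5 of 10 members higher and 1 lower, with a median log2 change of 0.59, where 14.5% of all genes were higher and 12.5% lower with a median of 0.01. Vegfa, the vessel growth factor, had 84.3 and 91.9 CPM in mutant cells at days 13 and 19, against 48.5 and 49.0 CPM in wild-type cells (0.65). Ankrd37 had 24.02 and 38.9 CPM in mutant cells, against 4.33 and 9.17 CPM in wild-type cells (2.08). Car9, a carbonic anhydrase, Egln3, an oxygen sensor, and Ndrg1 were also higher (2.26, 0.997 and 0.89), and Bnip3, a mitophagy receptor, was lower (-0.40). The cartilage list was lower in 9 of 10 members, with a median log2 change of -2.04. Over age, Hk2 and Ankrd37 passed as higher at day 19 (0.56 and 0.82), and no gene of the remaining pathway lists passed.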

How the data were processed

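The measurements are 10x 3' single-cell RNA counts from 4 libraries. Per the file headers and the submitters' processing notes, the deposited files hold raw UMI counts per gene and barcode from Cell Ranger 3.1.0, with mm10 as the genome; Seurat 3 is listed there with no role. Barcodes were kept with at least 500 genes and no more than 15% mt- UMIs, after removal of Scrublet scores above 0.25, a threshold set after seeing that the automatic one marked almost no barcode in some libraries. Cells were clustered with scanpy 1.11.5 (2000 variable genes without members or mt- genes, 30 components, 15 neighbours, Leiden resolution 1.0) without batch correction, and named from marker lists; the limits that left mixed clusters unnamed, and the sub-clusters, were set after seeing the clusters. Counts were summed per library and class and fitted with edgeR 4.0.16 (quasi-likelihood, TMM, genotype and age as additive terms, 1 residual degree of freedom, Benjamini-Hochberg over all genes); DESeq2 1.42.0 was an alternative. With 1 library per genotype and age, the 2 ages of a genotype stand in for replicates, nothing in the labels says how many animals a library holds, and ratios at 1 age carry exact 95% intervals for counting error only. In counts simulated for this chondrocyte comparison at a dispersion of 0.01, 82% of 2-fold changes were found and 4 genes of the 14692 simulated were called falsely, while at 0.05 the share found was 4%; the fitted common dispersion was 0.0179. A few members and lists were set down by a rule: isoform pairs, the extremes and most abundant member of each complex by genotype, the extremes by age, and the 5 most variable over classes. The symbol rule for members and the lists were chosen with earlier results of these data known.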

Additional observations from a re-analysis of the deposited data

Results flagged for a closer look

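The summed member share and the members named by rule were screened, and in chondrocyte-like cells the share and 7 of these members differed in opposite directions between genotypes at the 2 ages, each with counting intervals clear of 0; the difference between ages was not tested, since there is 1 library per genotype and age. For the summed share the log2 ratio of mutant over wild type was 0.076 at day 13 and -0.091 at day 19. Higher in mutant cells at day 13 and lower at day 19 were Ndufa4 (0.21 and -0.29), Cox6b1 (0.070 and -0.17), Cox7b (0.16 and -0.11), Cox8a (0.21 and -0.067) and Sdhb (0.11 and -0.23). Uqcrh (-0.035 and 0.060) and Cox7a2l (-0.082 and 0.13) ran the other way. These ratios are on plain CPM, and the TMM scaling used for the calls shifts them by -0.26 at day 13 and -0.14 at day 19. Each ratio above 0 given here is smaller in size than the shift at its age, so these changes of side are not seen with that scaling. Over all 94 tested members, 42 lay on opposite sides at the 2 ages on plain CPM, with or without clear intervals. The median ratio of all genes was 0.27 at day 13 and 0.15 at day 19, and the wild-type library at day 19 is the one whose mitochondrially encoded share stood lowest in 9 of 10 classes.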

How the results depend on the processing

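The 16 members called lower in mutant chondrocyte-like cells became 7 with DESeq2, 6 with genotype as the only term, 10 without the limit on mt- UMIs, 4 over all skeletal-lineage clusters and 8 with the Mepe and Chad cluster added, a setting chosen after seeing the data. The 3 called higher became 1 with genotype as the only term and 1 over all skeletal-lineage clusters. In the other classes and single clusters, which overlap and of which clusters that equal a class were counted once, edgeR called 31 genotype and 5 age changes of members in sum, and DESeq2 called 4 and 0. With each library left out in turn and genotype as the only term, fits added after seeing the data, members called lower ranged from 0 to 14 and members called higher from 0 to 3. With all 4 libraries, Cox4i2, Cox8c and Ndufa8 passed in every alternative run, and Ndufa4l2 missed with genotype as the only term (adjusted p = 0.087, edgeR) and over all skeletal-lineage clusters (adjusted p = 0.052, edgeR). The fall of Cox4i2, -1.10 in the main run, was smaller in some of these. No member fell below -0.73 over all skeletal-lineage clusters, -0.76 with the Mepe and Chad cluster or -0.76 with doublets kept. The ratios of the summed share kept their direction. Mutant over wild type at day 13 was 0.071 with 200 genes or more, 0.10 with doublets kept, 0.10 without the mt- limit, 0.12 over skeletal-lineage clusters, 0.10 with the Mepe and Chad cluster and 0.052 without Ndufa4l2 and Cox4i2, also chosen after seeing the data; at day 19 it was -0.11 with 200 genes, -0.081 with doublets kept, -0.045 over skeletal-lineage clusters, -0.082 without mt- UMIs, -0.080 with the Mepe and Chad cluster and -0.12 without the 2 isoforms. Day 19 over day 13 in mutant cells was -0.067 with 200 genes, -0.077 with doublets kept, -0.074 without the mt- limit, -0.084 over skeletal-lineage clusters, -0.072 with the Mepe and Chad cluster and -0.046 without the 2 isoforms; in wild-type cells it was 0.12 with 1000 genes, 0.11 with doublets kept, 0.077 over skeletal-lineage clusters, 0.10 without mt- UMIs, 0.11 with the Mepe and Chad cluster and 0.12 without the 2 isoforms. The cause of these shifts was not tested. With 1 library per genotype and age, and no replicate numbers in the labels, no pairing beyond age was possible. The age term already sets mutant against wild type within each age, and genotype as the only term is the fit without it. With both terms, leaving a library out leaves no residual degree of freedom. Counting error is small for the class, and the number of libraries limits what can be said.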

Other observations

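Within the unnamed cluster 0, led by genes of basophils, mast cells and platelets, sub-clusters differed in the members they held. A sub-cluster of 62 cells led by Car1 had a summed member share of 3.15% to 3.52% over the 4 libraries, from as few as 12 cells per library. That lay above the 2.89% to 3.27% of macrophage-like cells except for an overlap at its lower end. Cox6b2, known from testis, stood there at 324 and 305 CPM in mutant libraries at days 13 and 19, against 138 and 286 CPM in wild-type libraries. The high share was not particular to these cells. A megakaryocyte-like sub-cluster of 40 cells held 3.04% to 3.39%, from as few as 3 cells per library. Another of 63 cells led by Car1 and Gfi1b held 3.00% to 3.24%, from as few as 7 cells per library. Cluster 11, led by genes of early B cells, held 2.58% to 2.84%, above the 2.11% to 2.47% of the whole B lineage-like class that includes it. The low-depth cluster 4 held 0.63% to 0.75%.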
